A study of Homo sapiens with 9 samples.

Results

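The genes described here were 9 transcription factors chosen by name: the ovarian and Müllerian lineage factors PAX8, SOX17, MECOM, WT1 and EMX2, and the nuclear receptors ESR1, ESRRA, PGR and NR3C1. They were 9 of the 58735 genes counted, and 8 of them held enough reads to be among the 16350 genes tested. RNA of SKOV3 cells, an established human ovarian carcinoma line, was sequenced in 9 libraries, 3 in each of 3 groups. WT CDK9 cells expressed wild-type CDK9, the kinase of the elongation factor P-TEFb. ALK inhibitor-treated WT CDK9 cells were the same cells after 24 h with an inhibitor of the receptor tyrosine kinase ALK, and Tyr19Phe CDK9 cells expressed CDK9 with phenylalanine in place of tyrosine 19. The study made such cells as stable lines carrying tagged CDK9. Neither the labels nor the methods say, for these libraries, whether the endogenous CDK9 had been depleted, whether a line was 1 clone, or which inhibitor was given at which dose. A difference between Tyr19Phe and WT CDK9 cells was therefore a difference between lines, in which the substitution and the line cannot be told apart. Nothing says that libraries of a group came from separate cultures, so p-values measure only the spread between these libraries.

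PAX8, a paired-box factor, and SOX17, an SRY-box factor, are used as markers of Müllerian epithelium, the tissue of the fallopian tube and of most serous ovarian carcinomas. WT1 marks serous histology, EMX2 is a homeobox factor of the urogenital tract, and MECOM encodes a zinc finger factor of a locus often gained in ovarian cancer. Nuclear receptors bind a ligand, or in the case of orphan receptors none that is known, and bind DNA with coactivators or corepressors. ESR1 encodes oestrogen receptor alpha, PGR the progesterone receptor, NR3C1 the glucocorticoid receptor and ESRRA the orphan receptor ERR-alpha, which acts with PGC-1 coactivators on mitochondrial genes.

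MECOM and ESRRA are shown by the sequence before their start sites, because MECOM differed between all 3 groups and ESRRA is the receptor whose mRNA differed between Tyr19Phe CDK9 cells and both other groups. The 250 bases before each RefSeq start (build GRCh38.p14) are printed 5′ to 3′ on the gene's strand, with the core of the GC box (GGGCGG) and the half-site that many nuclear receptors bind (AGGTCA) in capitals, on either strand and with overlapping matches included. A match is a description of these letters and not a binding site.
MECOM chr3:169663713-169663962, minus strand: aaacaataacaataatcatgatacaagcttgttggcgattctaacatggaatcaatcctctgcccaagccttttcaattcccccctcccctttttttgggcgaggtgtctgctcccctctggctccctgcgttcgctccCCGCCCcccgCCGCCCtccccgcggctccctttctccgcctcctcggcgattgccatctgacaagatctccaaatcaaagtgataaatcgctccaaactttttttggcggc
MECOM chr3:169147472-169147721, minus strand: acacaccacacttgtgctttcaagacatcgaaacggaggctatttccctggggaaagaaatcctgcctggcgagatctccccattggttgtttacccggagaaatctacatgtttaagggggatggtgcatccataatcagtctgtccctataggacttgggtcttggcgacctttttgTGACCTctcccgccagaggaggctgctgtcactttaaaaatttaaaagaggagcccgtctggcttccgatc
MECOM chr3:169146540-169146789, minus strand: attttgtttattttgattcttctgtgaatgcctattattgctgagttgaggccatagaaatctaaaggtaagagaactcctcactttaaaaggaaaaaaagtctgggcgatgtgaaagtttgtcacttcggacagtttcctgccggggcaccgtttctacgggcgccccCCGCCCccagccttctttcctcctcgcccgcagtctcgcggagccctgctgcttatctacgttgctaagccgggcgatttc
ESRRA chr11:64305274-64305523, plus strand: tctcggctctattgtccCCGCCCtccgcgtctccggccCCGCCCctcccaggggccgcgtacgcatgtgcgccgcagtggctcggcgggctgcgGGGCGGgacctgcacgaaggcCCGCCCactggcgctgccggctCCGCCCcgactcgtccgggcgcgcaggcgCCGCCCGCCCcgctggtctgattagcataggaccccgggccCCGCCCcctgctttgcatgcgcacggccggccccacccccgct
The first and last MECOM starts lay 517173 bases apart, the first being that of the long MDS1-EVI1 form, and counts per gene do not separate transcripts of these starts. The first MECOM window held 2 GC box cores, the last held 1, and the middle window held 1 receptor half-site, read on the opposite strand. The ESRRA window held 8 GC box cores, a pair of them overlapping, and no receptor half-site. A GC box core was present in 42.6% of the 35116 promoters of the same length in the RefSeq table, 2.22% held 6 or more, and the receptor half-site was present in 12.1%. The ESRRA window was 78% G or C, above 94.3% of these promoters, whose median was 58%. In all, 8 of the 9 genes had promoters in the table, with SOX17 as the one without an entry.

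The libraries held 18169050 to 29320184 counted reads. Those of Tyr19Phe CDK9 cells were the deepest, with a median 1.45 times that of WT CDK9 cells. Levels are given as CPM, read counts relative to library size, after TMM scaling, which allows for differences in composition, and 3 counts corresponded to 0.102 to 0.165 CPM. Fewer genes were detected in ALK inhibitor replicate 2 (19944) and Tyr19Phe replicate 3 (20635) than in the other libraries (up to 22744), and the counts of calls were also taken without both libraries. The cells expressed ERBB2, which is amplified in this line, at means of 1799.6 CPM in WT CDK9, 2625 CPM in ALK inhibitor-treated and 1470 CPM in Tyr19Phe CDK9 cells, together with KRT7, KRT8, KRT18, KRT19, EPCAM and MSLN. Of these epithelial and ovarian carcinoma markers, MSLN (41.7 ± 0.410 to 13.1 ± 1.51 CPM, log2 fold change -1.67, adjusted p = 4.91e-14), KRT19 (-1.24, adjusted p = 3.86e-17) and EPCAM (-0.82, adjusted p = 1.76e-05) were lower in Tyr19Phe than in WT CDK9 cells, and KRT8 (0.38, adjusted p = 5.11e-10) and KRT18 (0.39, adjusted p = 1.01e-06) were higher, all by edgeR's test. By the same test ERBB2 was also lower in Tyr19Phe CDK9 cells (-0.29, adjusted p = 5.4e-08). After the inhibitor ERBB2 (0.54, adjusted p = 2.96e-13) and KRT19 (0.21, adjusted p = 0.0167) were higher by this test, and KRT7 (-0.35, adjusted p = 1.15e-08) was lower. The ovarian carcinoma markers MUC16 and WFDC2 stayed at 9 counts or fewer in every library. Summed CPM was at most 1.39 for 3 endothelial markers and at most 0.237 for 3 leukocyte markers. For the fallopian tube markers OVGP1, FOXJ1 and CAPS it was 6.21 to 10.7.

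Compared per kilobase of listed gene length, the 9 genes fell into separate tiers, as the plot of levels per kilobase shows. In WT CDK9 cells SOX17 stood at 38.9 ± 2.40 CPM per kilobase (SD, n = 3 for this and all following means) and PAX8 at 36.4 ± 0.873, and their libraries overlapped. These levels were above those of 92.2% and 91.4% of the 13145 tested protein-coding genes. MECOM followed at 13.5 ± 0.396 CPM per kilobase and NR3C1 at 12.2 ± 0.205. ESRRA stood at 7.23 ± 0.532 and ESR1 at 1.82 ± 0.0755. The libraries of PAX8, MECOM, NR3C1, ESRRA and ESR1 did not overlap each other in any of the 3 groups. WT1, at 0.413 ± 0.299 CPM per kilobase, overlapped PGR, at 0.104 ± 0.0409, and their means lay above only 11.1% and 2.38% of tested protein-coding genes. The order of the first pair depended on the group. PAX8 and SOX17 overlapped in ALK inhibitor-treated cells (35.6 ± 0.607 and 34.8 ± 1.24 CPM per kilobase), and SOX17 lay above PAX8 in Tyr19Phe CDK9 cells (45.7 ± 2.44 and 36.0 ± 1.78).

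**Figure D1:**
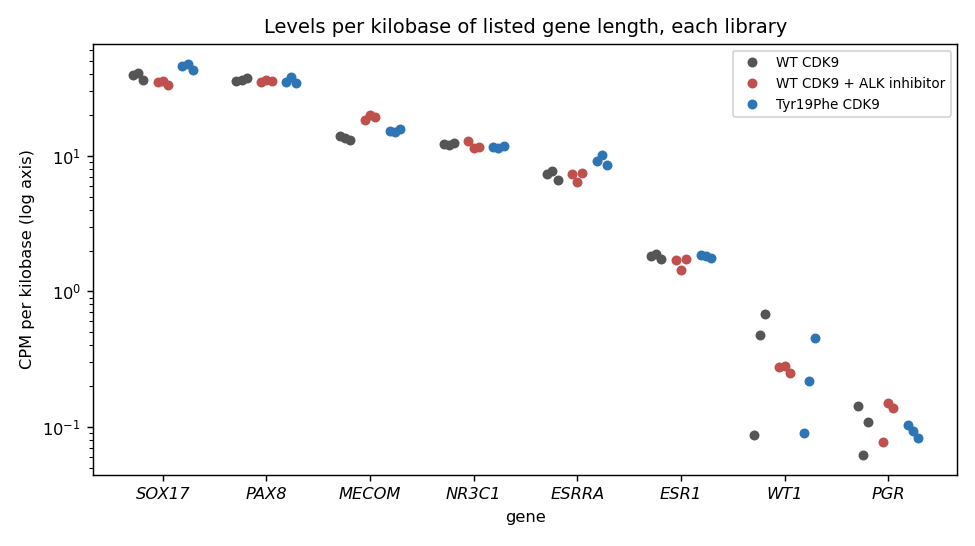
Each point is 1 library, with CPM per kilobase of listed gene length on a log axis and the genes on the horizontal axis. EMX2 is left out because 8 of its 9 libraries were at 0. SOX17 and PAX8 lie highest, WT1 and PGR lowest, and the WT1 libraries spread most within a group.

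MECOM was the one gene of the 9 that differed between all 3 groups. The gene (ENSG00000085276) lies on the minus strand at chr3:169083499-169663618 (hg38). Its level was 127, 122 and 119 CPM in the libraries of WT CDK9 cells. It was 167, 182 and 177 CPM after the ALK inhibitor and 139, 137 and 144 CPM in Tyr19Phe CDK9 cells. The 3 groups did not overlap, with the inhibitor-treated libraries highest and the WT CDK9 libraries lowest. The means were 122.8 ± 3.60, 175.6 ± 7.74 and 140.4 ± 3.57 CPM. MECOM was 1.43-fold higher after the inhibitor (log2 fold change 0.52, SE 0.05, adjusted p = 9.84e-09, edgeR's quasi-likelihood test with Benjamini-Hochberg adjustment over all tested genes, as for every adjusted p given here). In Tyr19Phe CDK9 cells it was 1.14-fold higher than in WT CDK9 cells (log2 fold change 0.19, SE 0.05, adjusted p = 0.00613). The direct test between these groups gave a log2 fold change of -0.32 (SE 0.05, adjusted p = 1.02e-05), lower in Tyr19Phe CDK9 cells. In bulk RNA, more cells carrying the mRNA and more mRNA per cell cannot be told apart. All 3 calls were kept in each of the 17 alternative analyses run for each comparison, with adjusted p up to 1.07e-06, 0.0348 and 0.000671 in turn. RPL22P1, a processed pseudogene lying within MECOM on the same strand, held 240 to 365 counts and passed no test (log2 fold change -0.06 after the inhibitor, adjusted p = 0.916, and -0.28 in Tyr19Phe CDK9 cells, adjusted p = 0.192). The antisense gene MECOM-AS1 held 0 to 12 counts per library. PRDM16, the paralog of MECOM, was at 0 in all 9 libraries.

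SOX17 rose in Tyr19Phe CDK9 cells and did not pass the test after the ALK inhibitor. The gene (ENSG00000164736) lies on the plus strand at chr8:54457935-54460888 and overlaps no other listed gene. It was counted at 92.0, 96.0 and 84.9 CPM in WT CDK9 libraries, 82.4, 83.6 and 78.1 CPM after the inhibitor and 107, 112 and 101 CPM in Tyr19Phe CDK9 libraries. Again no groups overlapped, but here the inhibitor-treated libraries were lowest and the Tyr19Phe libraries highest, with group means of 91.0 ± 5.63, 81.4 ± 2.89 and 107 ± 5.71 CPM. The rise in Tyr19Phe over WT CDK9 cells had a log2 fold change of 0.23 (SE 0.06, adjusted p = 0.0061). Without WT CDK9 replicate 3, the lowest of its group, it was 0.19 with an adjusted p of 0.06. The difference after the inhibitor, -0.16 on the log2 scale (SE 0.06, interval of ± 1.96 SE from -0.28 to -0.04), did not pass after adjustment (adjusted p = 0.179). Tyr19Phe CDK9 cells exceeded inhibitor-treated cells by 0.39 on the log2 scale (SE 0.06, adjusted p = 1.11e-05), a call kept in 17 of 17 alternatives. Of the other SOXF genes, SOX18 lay at 4.29 ± 0.160 CPM in WT CDK9 cells, 2.72 ± 0.662 after the inhibitor and 1.36 ± 0.662 in Tyr19Phe CDK9 cells. SOX18 fell by 1.65 on the log2 scale in Tyr19Phe relative to WT CDK9 cells (SE 0.35, adjusted p = 0.000747), with 20 to 61 counts per library against 80 to 83. SOX7 held 8 to 35 counts per library and was not called in any comparison.

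PAX8 had the most CPM of the 9 genes and passed no test between groups. It lies on the minus strand at chr2:113215997-113278950 (ENSG00000125618). WT CDK9 libraries had 262.8, 270.2 and 275.7 CPM, inhibitor-treated libraries 259, 267.9 and 262.3 CPM, and Tyr19Phe libraries 260.03, 281.4 and 257.5 CPM. All 3 groups overlapped. The log2 fold change was -0.04 after the inhibitor (SE 0.04, adjusted p = 0.802) and -0.02 in Tyr19Phe CDK9 cells (SE 0.04, adjusted p = 0.848). The intervals of these differences ran from -0.12 to 0.05 and from -0.10 to 0.07, and larger changes of PAX8 lay outside them. PAX8-AS1 covers 96.2% of the PAX8 span on the opposite strand and held 517 to 827 counts per library. Its log2 fold change was -0.10 after the inhibitor (adjusted p = 0.733) and -0.17 in Tyr19Phe CDK9 cells (adjusted p = 0.273). The sources used here do not state whether counting used the strand, so reads of PAX8 and PAX8-AS1 may not be told apart. PAX2, a PAX paralog of urogenital tissue, was at 0 in all libraries, and PAX5 at 0 in 8 of 9.

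WT1 and EMX2 were at or near the limit of detection. WT1 (ENSG00000184937, chr11:32387775-32435630, minus strand) held 7, 37 and 52 counts in WT CDK9 libraries, 24, 21 and 20 after the inhibitor, and 11, 25 and 49 in Tyr19Phe libraries. The WT CDK9 libraries spanned the whole range of the other groups. Mean CPM was 1.70 ± 1.23, 1.11 ± 0.0655 and 1.04 ± 0.749. The log2 fold change was -0.61 after the inhibitor (SE 0.60, adjusted p = 0.733) and -0.71 in Tyr19Phe CDK9 cells (SE 0.59, adjusted p = 0.474). Its intervals, -1.79 to 0.57 and -1.87 to 0.45, included changes in either direction, so the direction was not resolved. EMX2 (ENSG00000170370, chr10:117542444-117549546, plus strand) had 0 counts in 8 libraries and 4 counts in Tyr19Phe replicate 1, and was not tested. The antisense genes WT1-AS, with 0 to 4 counts, and EMX2OS, with 0, were as low, and EMX1 was at 0 throughout.

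**Figure D2:**
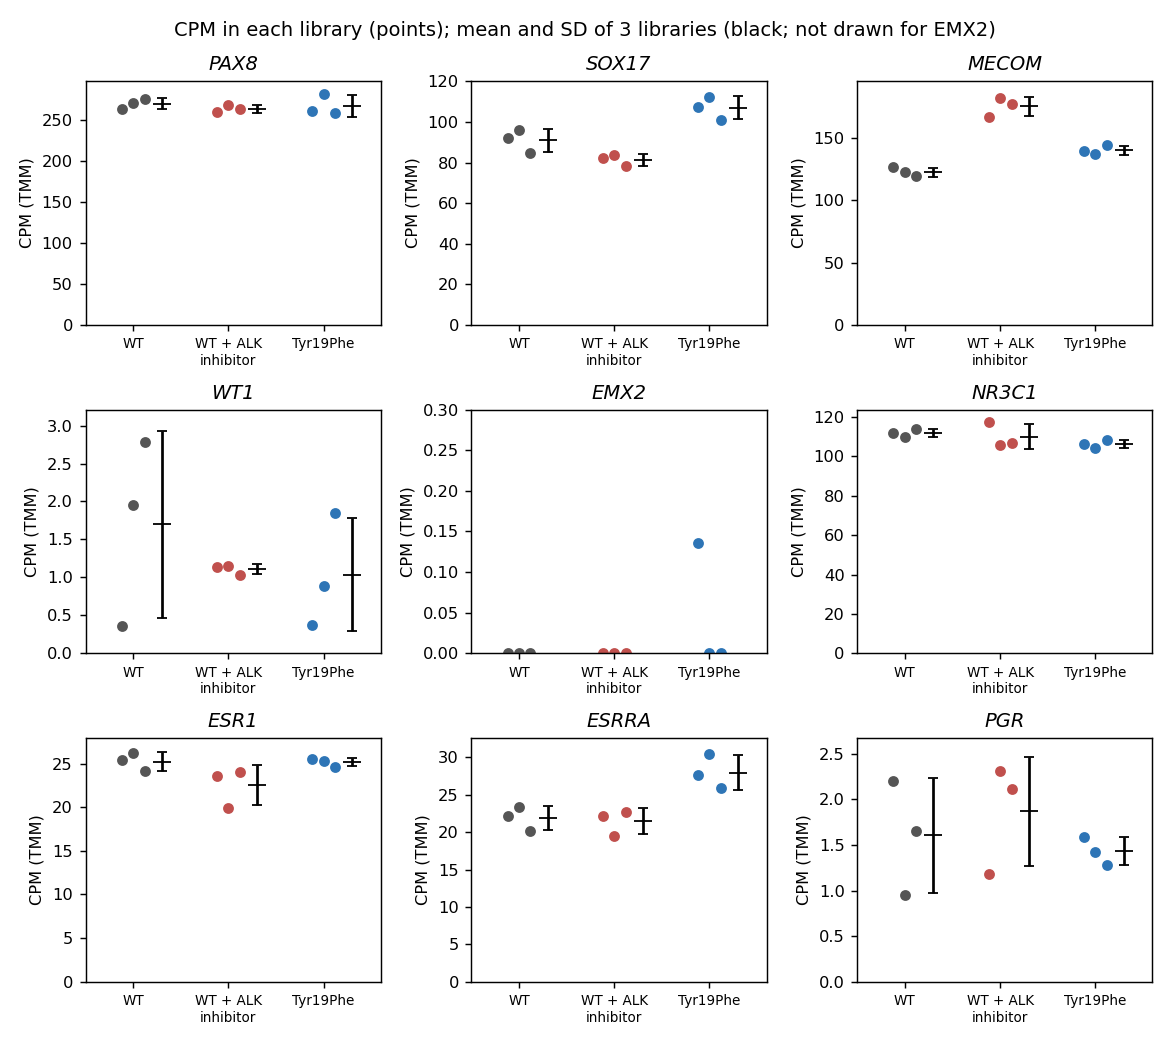
CPM of each gene in each library by group, with points for libraries and black marks for the mean and SD of 3 libraries, each vertical axis starting at 0. MECOM and SOX17 separate into 3 groups, ESRRA is raised in Tyr19Phe CDK9 cells alone, and PAX8, NR3C1 and ESR1 stay near their WT CDK9 level.

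Among the nuclear receptors, ESRRA was the one called. It lies on the plus strand at chr11:64305572-64316743 (ENSG00000173153). WT CDK9 libraries had 22.2, 23.3 and 20.1 CPM, inhibitor-treated libraries 22.2, 19.6 and 22.7 CPM, and Tyr19Phe libraries 27.6, 30.5 and 25.8 CPM. Every Tyr19Phe library lay above all 6 others, which overlapped each other. Mean CPM was 21.9 ± 1.61, 21.5 ± 1.70 and 28.0 ± 2.35. ESRRA was 1.28-fold higher in Tyr19Phe than in WT CDK9 cells (log2 fold change 0.35, SE 0.11, adjusted p = 0.0182) and higher than in inhibitor-treated cells by 0.38 (SE 0.11, adjusted p = 0.00984). After the inhibitor the log2 fold change was -0.03 (SE 0.11, interval -0.24 to 0.19, adjusted p = 0.956). The rise over WT CDK9 cells was 0.30 (adjusted p = 0.102) without WT CDK9 replicate 3 and 0.29 (adjusted p = 0.114) without Tyr19Phe replicate 2, and the difference from inhibitor-treated cells missed the threshold at 0.32 without inhibitor replicate 2 (adjusted p = 0.0589) or Tyr19Phe replicate 2 (adjusted p = 0.0755). The rise was also computed for equal depth and without a trend on gene GC content and length, and its log2 fold change was 0.34 (adjusted p = 0.018) with the trend of GC content and length removed and 0.33 (adjusted p = 0.0327) with all libraries thinned to the smallest. TRMT112, a methyltransferase cofactor gene that shares 284 bases with ESRRA on the opposite strand, held 1365 to 2224 counts and was not called in Tyr19Phe against WT CDK9 cells (log2 fold change -0.07, adjusted p = 0.605). The paralogs were sparse, with ESRRB at 0 to 17 counts and ESRRG at 0 to 5.

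NR3C1 was the most abundant of the 4 receptors. It lies on the minus strand at chr5:143277931-143435512 (ENSG00000113580). WT CDK9 libraries had 112, 110.1 and 114 CPM, inhibitor-treated libraries 117, 106 and 107 CPM, and Tyr19Phe libraries 106, 104 and 108 CPM. The Tyr19Phe libraries all lay below the WT CDK9 libraries, by a small margin, and the inhibitor-treated libraries overlapped both groups. The log2 fold change was -0.07 in Tyr19Phe CDK9 cells (SE 0.06, interval -0.18 to 0.03, adjusted p = 0.416) and -0.03 after the inhibitor (SE 0.06, interval -0.14 to 0.09, adjusted p = 0.907). NR3C2, the mineralocorticoid receptor, held 5 to 38 counts and was lower in Tyr19Phe than in inhibitor-treated cells by a log2 fold change of -1.77 (SE 0.65, adjusted p = 0.0482). Under the alternatives this call, and that of SOX18 in the same comparison (-1.0, adjusted p = 0.0418), did not always hold, and the calls among these paralogs ranged from 0 to 2. It was 0 without inhibitor replicate 2, without inhibitor replicate 3, and without Tyr19Phe replicate 2.

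ESR1 was detected at a lower level. It lies on the plus strand at chr6:151656691-152129619 (ENSG00000091831), with 25.4, 26.2 and 24.1 CPM in WT CDK9 libraries, 23.6, 19.9 and 24.0 CPM after the inhibitor and 25.6, 25.3 and 24.6 CPM in Tyr19Phe libraries. The inhibitor-treated libraries were all below those of WT CDK9 cells, with replicate 2 lowest, and the Tyr19Phe libraries lay within the WT CDK9 range. The log2 fold change was -0.16 after the inhibitor (SE 0.11, interval -0.37 to 0.04, adjusted p = 0.53) and -0.0032 in Tyr19Phe CDK9 cells (SE 0.10, interval -0.21 to 0.20, adjusted p = 0.989). SYNE1, a nuclear envelope gene whose end overlaps 1.68% of the ESR1 span on the opposite strand, held 788 to 1695 counts and was higher in the Tyr19Phe than in the WT CDK9 libraries (log2 fold change 0.23, SE 0.08, adjusted p = 0.0474), with 0.27 after the inhibitor (adjusted p = 0.0501). Its part in the ESR1 counts was not tested. ESR2, the beta receptor, held 0 to 24 counts.

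PGR (ENSG00000082175, chr11:101029624-101130524, minus strand) was sparse, at 43, 18 and 31 counts in WT CDK9 libraries, 25, 42 and 41 after the inhibitor and 47, 40 and 34 in Tyr19Phe libraries. The groups overlapped throughout, at mean levels of 1.60 ± 0.630, 1.87 ± 0.600 and 1.43 ± 0.155 CPM. The log2 fold change was 0.22 after the inhibitor (SE 0.44, interval -0.65 to 1.08, adjusted p = 0.897) and -0.16 in Tyr19Phe CDK9 cells (SE 0.44, interval -1.02 to 0.70, adjusted p = 0.863).

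Counted together, 1 of the 8 tested genes (MECOM) was higher after the inhibitor and 0 lower, where 4.55% of all 16350 tested genes were called (1.82% higher, 2.73% lower). By edgeR at an unadjusted p under 0.05, 1 gene, SOX17, was lower, and DESeq2 called 0 lower. In Tyr19Phe against WT CDK9 cells, 3 were higher (MECOM, SOX17 and ESRRA) and 0 lower, where 18.0% of all tested genes were called (7.61% higher, 10.4% lower). The number lower was also 0 at an unadjusted p under 0.05 by edgeR and 0 by DESeq2. The count of 3 fell to 1, MECOM, without WT CDK9 replicate 3. Between Tyr19Phe and inhibitor-treated cells, 2 were higher (SOX17 and ESRRA) and 1 lower (MECOM), where 20.7% of all tested genes were called (9.57% higher, 11.1% lower). The first pair of comparisons shares the WT CDK9 libraries, and the direct comparison is the test of their difference. The groups did not overlap for 1 gene higher and 2 lower after the inhibitor, against 9.31% and 10.3% of all tested genes (19.6% in all). In Tyr19Phe against WT CDK9 cells they did not overlap for 3 higher and 1 lower, against 15.4% and 17.2% (32.6% in all), and between Tyr19Phe and inhibitor-treated cells for 3 higher and 1 lower, against 16.7% and 17.7% (34.4% in all). No test of the 8 genes as a set was made.

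**Figure D3:**
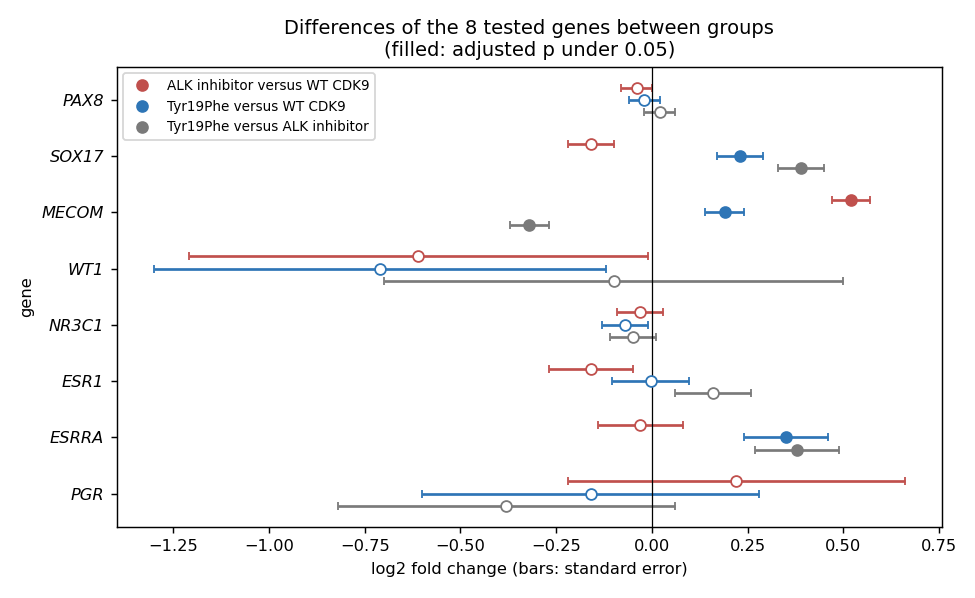
Log2 fold changes of the 8 tested genes (points) with their standard errors (bars) in the 3 comparisons, filled where the adjusted p was under 0.05. MECOM is highest after the inhibitor (0.52), SOX17 and ESRRA are raised in Tyr19Phe CDK9 cells (0.23 and 0.35), and the bars of WT1 and PGR are the widest.

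The positions on the chromosome were compared with those of their neighbours, as the median log2 fold change of the other tested genes within 5 Mb on either side. Around MECOM, 27 genes had a median of -0.0273 after the inhibitor, with 0 called, and of 0.00227 in Tyr19Phe CDK9 cells, with 1 higher and 4 lower. The 28 genes around SOX17 had a median of 0.0573 in Tyr19Phe CDK9 cells (3 higher, 2 lower) and the 231 around ESRRA 0.0597 (31 higher, 17 lower). MECOM, SOX17 and ESRRA lay above these medians, which follows from their having been called higher beside medians near 0. In Tyr19Phe CDK9 cells, however, SOX17 (0.23) lay within the quartiles of its neighbours, -0.0984 to 0.342. There ESRRA (0.35) exceeded the upper quartile of its neighbours (0.214), and MECOM (0.19) slightly exceeded that of its own (0.175). After the inhibitor MECOM (0.52) exceeded an upper quartile of 0.128. The largest of these medians lay around PGR, which itself was not called. There 26 genes had a median of 0.202 in Tyr19Phe CDK9 cells (quartiles -0.0408 to 0.497), with 7 higher and 0 lower. Of all tested genes, 7.61% were called higher and 10.4% lower in Tyr19Phe against WT CDK9 cells, and 4.55% were called after the inhibitor. No neighbourhood was tested as a set.

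The genes nearest in pattern were found by the Euclidean distance between log2 CPM profiles, centred over the 9 libraries, among 14041 genes. Nearest to MECOM were C14orf132 (distance 0.143), FAM214B (0.19) and SPHK1 (0.219), nearest to SOX17 were MTCL1 (0.107), MRPS16 (0.134) and RABL6 (0.151), and nearest to ESRRA were FOXP4 (0.131), WDR34 (0.156) and MAZ (0.166). A flat profile would lie 0.649 from MECOM, 0.518 from SOX17 and 0.589 from ESRRA. These genes were picked by their likeness over the same libraries, so differences in the same direction follow from the choice. SPHK1, the sphingosine kinase gene, was higher after the inhibitor (log2 fold change 0.45, adjusted p = 7.9e-06) and in Tyr19Phe CDK9 cells (0.22, adjusted p = 0.0118). FAM214B was called after the inhibitor (0.6, adjusted p = 0.000248) and not in Tyr19Phe CDK9 cells (0.23, adjusted p = 0.123). C14orf132 passed no test (adjusted p = 0.4 and 0.703).

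The known targets of the receptors were described next, beside a median over all tested genes of -0.00103 after the inhibitor and 0.00346 in Tyr19Phe CDK9 cells. For the counts below, 4.55% of all tested genes were called after the inhibitor (1.82% higher, 2.73% lower). Against WT CDK9 cells, 18.0% were called in Tyr19Phe CDK9 cells (7.61% higher, 10.4% lower). No list was tested as a set. Of 25 tested glucocorticoid receptor targets, 7 rose and 0 fell in Tyr19Phe CDK9 cells, with a median log2 fold change of 0.185 and 19 of 25 above 0. At an unadjusted p under 0.05 edgeR gave 1 lower, and DESeq2 called 0 lower. MT2A, a metallothionein gene, rose from 325.8 ± 29.6 to 550.8 ± 17.2 CPM (log2 fold change 0.76, SE 0.05, adjusted p = 1.62e-13). SGK1, a serum- and glucocorticoid-induced kinase, rose by 0.59 (SE 0.08, adjusted p = 1.73e-06), TNFAIP3, a ubiquitin-editing enzyme of the NF-κB pathway, by 0.98 (SE 0.14, adjusted p = 5.31e-06), and KLF6, a zinc finger factor, by 0.43 (SE 0.05, adjusted p = 1.75e-08). The targets FKBP5, TSC22D3 and PER1, chosen after their values were seen, were not called against WT CDK9 cells, at 37.2 ± 2.77, 23.7 ± 1.16 and 5.83 ± 0.120 CPM in Tyr19Phe CDK9 cells against 35.3 ± 3.45, 20.5 ± 1.27 and 6.55 ± 0.532 CPM. The counts ranged from 6 to 8 higher and 0 to 2 lower over the alternatives, with 8 higher and 1 lower without both libraries with fewer genes detected. After the inhibitor 2 of these targets rose, ANXA1 (log2 fold change 0.18, adjusted p = 0.00383) and ANGPTL4 (0.72, adjusted p = 0.00932), and 1 fell, MT2A (-0.33, adjusted p = 2.23e-05), with a list median of -0.0318. MT2A lay at 259.5 ± 12.2 CPM after the inhibitor, from 249 to 273 CPM by library, below each WT CDK9 library (299.8 to 358 CPM).

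Oestrogen receptor targets moved in both directions. Of 22 tested, 2 rose and 2 fell after the inhibitor (list median 0.0237), and 5 rose and 4 fell in Tyr19Phe CDK9 cells (list median -0.172). Among all tested genes, 1.82% and 2.73% were called higher and lower after the inhibitor, and 7.61% and 10.4% in Tyr19Phe CDK9 cells. CA12, a carbonic anhydrase gene, stood at 17.8 ± 1.72 CPM in WT CDK9 cells, 31.1 ± 2.06 after the inhibitor and 8.93 ± 1.22 in Tyr19Phe CDK9 cells, with no overlap between the groups. It was higher after the inhibitor (log2 fold change 0.80, SE 0.12, adjusted p = 2.61e-05) and lower in Tyr19Phe CDK9 cells (-0.99, SE 0.13, adjusted p = 5.07e-07). CCND1, encoding cyclin D1, rose in Tyr19Phe CDK9 cells by 0.32 (SE 0.04, adjusted p = 1.32e-07) and XBP1, a factor of the unfolded protein response, by 0.51 (SE 0.07, adjusted p = 1.06e-06), whereas the cadherin gene CELSR2 fell by 0.46 (SE 0.04, adjusted p = 1.25e-11). After the inhibitor SLC7A5, an amino acid transporter gene, fell by 0.47 (SE 0.03, adjusted p = 8.84e-13) and the scaffold gene PDZK1 by 1.03 (SE 0.14, adjusted p = 4.52e-06), and RAB31, a small GTPase gene, rose by 0.51 (SE 0.12, adjusted p = 0.00898). TFF1 and GREB1, classical oestrogen-induced genes chosen after their values were seen, were sparse: TFF1 was at 0 in 8 of 9 libraries, and GREB1 held 23 to 43 counts.

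All 29 ERR-alpha and PGC-1 targets were tested. After the inhibitor edgeR called 0, where 4.55% of all tested genes were called. It gave 2 lower and 0 higher at an unadjusted p under 0.05, and DESeq2 called 0. In Tyr19Phe CDK9 cells 0 of the 29 rose and 4 fell, where 7.61% and 10.4% of all tested genes rose and fell. The list median there was -0.038. DESeq2 called 1 higher and 5 lower, and edgeR gave 1 higher and 7 lower at an unadjusted p under 0.05. CPT1A, the carnitine palmitoyltransferase of the outer mitochondrial membrane, fell by 0.36 (SE 0.07, adjusted p = 0.000137), and the genes of a subunit of ATP synthase, ATP5MC3 (-0.26, adjusted p = 0.0055), of oxoglutarate dehydrogenase, OGDH (-0.27, adjusted p = 0.0197), and of a cytochrome c oxidase subunit, COX5A (-0.21, adjusted p = 0.0285), were also lower. The 4 calls became 1 without Tyr19Phe replicate 3 and 2 without both libraries with fewer genes detected. PPARGC1A, which encodes the coactivator PGC-1 alpha, held 0 to 4 counts per library. The other PGC-1 family genes, PPARGC1B and PPRC1, stood at 4.54 and 64.7 CPM in WT CDK9 cells. Against WT CDK9 cells edgeR called neither in Tyr19Phe CDK9 cells (0.16 and 0.09, adjusted p = 0.732 and 0.461). PPRC1 was higher in Tyr19Phe than in inhibitor-treated cells (0.31, adjusted p = 0.00301).

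**Figure D4:**
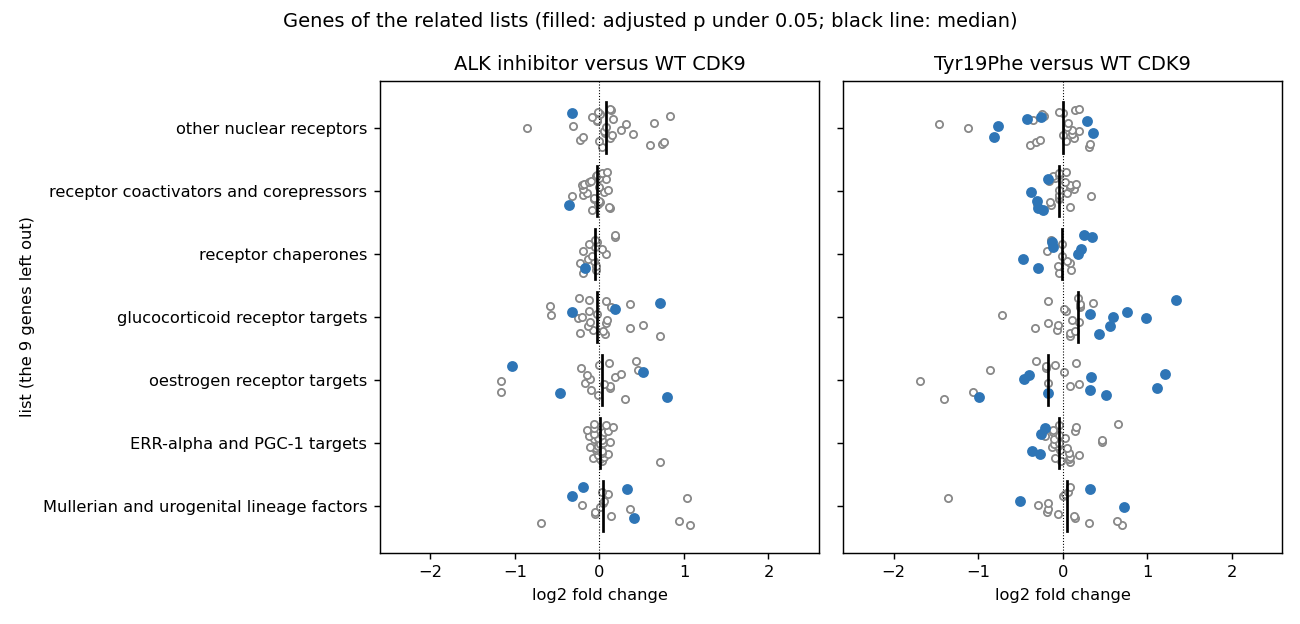
Log2 fold changes of the tested genes of each list (points) after the ALK inhibitor and in Tyr19Phe CDK9 cells, each against WT CDK9 cells, filled where the adjusted p was under 0.05, with a black line at the list's median. The glucocorticoid receptor targets hold 7 filled points to the right of 0 and 0 to the left in Tyr19Phe CDK9 cells. In that comparison 7.61% of all tested genes were called higher and 10.4% lower.

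Of 26 tested coactivator and corepressor genes, 0 rose and 5 fell in Tyr19Phe CDK9 cells (list median -0.0462). In this comparison, 18.0% of all tested genes were called (7.61% higher, 10.4% lower). All 3 p160 coactivator genes fell, NCOA1 by 0.29 (adjusted p = 0.00353), NCOA2 by 0.38 (adjusted p = 0.00303) and NCOA3 by 0.31 (adjusted p = 0.000219), as did the acetyltransferase gene CREBBP by 0.23 (adjusted p = 0.000799). NCOA3 went from 110.9 ± 5.55 CPM in WT CDK9 cells to 89.8 ± 3.74 CPM, and every Tyr19Phe library lay below every WT CDK9 library. The count ranged from 4 to 6 lower over the alternatives, 4 without both libraries with fewer genes detected, with 0 higher in each, DESeq2 included, and 0 higher at an unadjusted p under 0.05. After the inhibitor 1 gene was called, beside 4.55% of all tested genes: TBL1X, which encodes a corepressor subunit (-0.36, SE 0.09, adjusted p = 0.00927). Of 17 receptor chaperone genes, 4 rose and 4 fell in Tyr19Phe CDK9 cells (list median -0.00894). HSP90AA1, the inducible HSP90 gene, fell by 0.29 (SE 0.03, adjusted p = 4.05e-09) there and by 0.17 (SE 0.03, adjusted p = 0.000186) after the inhibitor, and AHSA1, which activates HSP90, fell by 0.47 (SE 0.07, adjusted p = 1.11e-05). HSPA8 and HSPA1B, both of the HSP70 family, rose by 0.22 (adjusted p = 3.39e-05) and 0.35 (adjusted p = 0.00579). HSPA1B has a near-identical copy with which reads may be shared. These counts were less stable, with 3 higher and 3 lower without both libraries with fewer genes detected, 1 higher and 3 lower without WT CDK9 replicate 3, 2 higher and 2 lower without WT CDK9 replicate 1 or Tyr19Phe replicate 2, and 2 lower without WT CDK9 replicate 2 or Tyr19Phe replicate 1.

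Of the other nuclear receptor genes, 28 of 44 were tested, and 2 rose and 4 fell in Tyr19Phe CDK9 cells (list median 0.00196) against 0 and 1 after the inhibitor (list median 0.0747). The shares of all tested genes called were 7.61% higher and 10.4% lower in Tyr19Phe CDK9 cells, and 1.82% and 2.73% after the inhibitor. By edgeR 3 of the 28 were higher after the inhibitor at an unadjusted p under 0.05, and DESeq2 called 0 of them higher. THRB, the beta thyroid hormone receptor, fell from 36.9 ± 1.27 to 21.6 ± 1.08 CPM in Tyr19Phe CDK9 cells (log2 fold change -0.77, SE 0.10, adjusted p = 6.61e-07), and NR4A1, an immediate-early orphan receptor, fell by 0.81 (SE 0.20, adjusted p = 0.00324). NR1H2, the beta liver X receptor, rose by 0.36 (adjusted p = 0.000854) and the orphan receptor NR2F6 by 0.29 (adjusted p = 0.000796). NR2F2, which encodes COUP-TFII, was the one called after the inhibitor (-0.32, SE 0.07, adjusted p = 0.0032), at 78.9 ± 7.24 CPM against 98.4 ± 7.56 CPM. After the inhibitor 2 fell without both libraries with fewer genes detected.

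Of 30 other factors of the Müllerian and urogenital lineage, 18 were tested. After the inhibitor 2 rose and 2 fell (list median 0.043), and in Tyr19Phe CDK9 cells 2 rose and 1 fell (list median 0.0426). Of all tested genes, 1.82% rose and 2.73% fell after the inhibitor, and 7.61% rose and 10.4% fell in Tyr19Phe CDK9 cells. For the 18 factors the counts were 2 and 1, and 3 and 1, without both libraries with fewer genes detected. LHX1, a LIM homeobox factor of the developing urogenital ducts, was higher by 0.32 in both comparisons (SE 0.04 in each, adjusted p = 5.81e-06 and 1.4e-06), at 187.6 ± 6.43 CPM in WT CDK9 cells, 233.9 ± 3.85 after the inhibitor and 234.4 ± 3.37 in Tyr19Phe CDK9 cells. SALL1, a zinc finger factor of kidney development, rose after the inhibitor by 0.41 (SE 0.09, adjusted p = 0.00446), and NR2F2, described above, was among those that fell. GATA6, a zinc finger factor, rose in Tyr19Phe CDK9 cells from 17.0 ± 1.12 to 28.3 ± 2.05 CPM (log2 fold change 0.73, SE 0.11, adjusted p = 6.97e-06), and BNC2, a zinc finger gene, fell by 0.51 (SE 0.13, adjusted p = 0.00351). Between Tyr19Phe and inhibitor-treated cells, 29 genes of these lists were higher and 26 lower, 55 in all and 40 without both libraries with fewer genes detected. Of all tested genes, 20.7% were called in this comparison (9.57% higher, 11.1% lower). The lists were chosen with earlier results of these data known, so no excess over this share is read from their counts. In the counts by list, a gene of 2 lists is counted in each, and the paralogs (0 higher, 2 lower) are left out. By list, 10 of 25 tested glucocorticoid receptor targets were higher and 2 lower, and 6 and 5 of 22 oestrogen receptor targets. The numbers were 1 and 3 of 29 ERR-alpha and PGC-1 targets, 4 and 5 of 26 coactivators and corepressors, and 4 and 2 of 17 chaperones. They were 3 and 5 of 28 other nuclear receptors, and 3 and 3 of 18 lineage factors. Without both libraries with fewer genes detected these became 9 and 2, 6 and 4, 0 and 1, 1 and 4, 1 and 2, 3 and 4, and 3 and 1 in the same order. MT2A differed by 1.09 (SE 0.05, adjusted p = 2.7e-17) and CA12 by -1.8 (SE 0.13, adjusted p = 1.01e-12) on the log2 scale. RARG, the gamma retinoic acid receptor, was lower in Tyr19Phe CDK9 cells (-0.58, SE 0.10, adjusted p = 5.79e-05). HSP90AB1, the constitutive HSP90 gene, was higher (0.12, SE 0.03, adjusted p = 0.00379).

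Summed levels of the fibroblast markers and of the granulosa and theca markers differed between the groups, mainly through COL1A1 and AMH. Summed CPM of 5 fibroblast markers, of which COL1A1 held the most, was 109.7 to 113 in WT CDK9, 124 to 162 in inhibitor-treated and 38.1 to 51.7 in Tyr19Phe libraries, and that of 6 granulosa and theca markers, mostly AMH, was 13.9 to 16.9, 10.1 to 12.4 and 18.8 to 22.1. In Tyr19Phe against WT CDK9 cells edgeR called COL1A1 lower (log2 fold change -1.46, adjusted p = 1.04e-13) and AMH higher (0.49, adjusted p = 0.00682). It did not call the other tested markers of these lists, COL1A2 (-0.08, adjusted p = 0.844), FOXL2 (-1.36, adjusted p = 0.394) and INHA (0.13, adjusted p = 0.924). The part of these markers in the results was not tested.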

How the data were processed

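Total RNA of SKOV3 cells was sequenced commercially, and the reads were mapped to hg38. Tools named in the submitters' processing notes are CASAVA, HISAT2 2.0.5 and featureCounts 1.5.0-p3. The annotation release and the strand setting are not given in the sources used here. The deposited table holds raw read counts per gene and library, made by the authors without normalization, beside gene positions and lengths. The 9 libraries were grouped by their titles (3 per group).

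The tests were run in edgeR 4.0.16 (R 4.3.3): TMM scaling, filterByExpr (minimum count 10, minimum total 15), 1 mean per group over all 9 libraries, and glmQLFTest. Genes were called at a Benjamini-Hochberg adjusted p under 0.05 over all tested genes. The procedure was first tested on simulated data. DESeq2 1.42.0, other scalings and filters, a replicate block and leaving out each library were alternatives. Leaving out both libraries with fewer genes, thinning and removal of a GC and length trend were added after seeing the data. Depth, 18169050 to 29320184 reads, limits the precision of genes with few counts.

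The 9 genes and the lists were chosen with earlier results of these data known. Besides the 9 genes, named genes were their paralogs and antisense neighbours with at least 10 counts in some library, up to 4 called genes of smallest adjusted p per list and comparison, and the 3 nearest profiles of each called gene (mean of at least 1 CPM). A few genes that this rule names are not reported here. Overlapping genes and paralogs at or near 0 were named beside them. Promoter sequences came from RefSeq (GRCh38.p14). Same-numbered libraries did not deviate together (correlations -0.0116 to 0.026).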

Additional observations from a re-analysis of the deposited data

How the results depend on the processing

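With only 3 libraries per group and 7 to 52 counts, WT1 could be described but not resolved, and PGR likewise. Of the fold changes of the 8 tested genes under the alternatives, 394 kept direction and side of the threshold, 6 kept direction but lost the call (SOX17 and ESRRA) and 29 changed sign, each a gene and comparison that had not passed the test. The calls of MECOM, SOX17 and ESRRA did not change sign. In Tyr19Phe against WT CDK9 cells, the number of the 8 genes called was 3 and ranged from 1 (without WT CDK9 replicate 3) to 3 when 1 library was left out, and ESRRA missed a threshold of 0.01 at 0.35. The cause was not tested.

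For PAX8 in Tyr19Phe against WT CDK9 cells the log2 fold change became 0.0039 with upper-quartile scaling, 0.0087 with library size alone and 0.01 without both libraries with fewer genes, and for ESR1 it became 0.02 in these 3 settings, 0.0038 with at least 10 counts in every library, 0.02 after thinning and 0.03 with the GC and length trend removed. Removing that trend gave -0.0025 for PAX8 and 0.04 for NR3C1 between Tyr19Phe and inhibitor-treated cells, and 0.0032 for NR3C1 against WT CDK9 cells. After the inhibitor, ESRRA became 0.04 without both libraries, and NR3C1 became 0.0004 with library size alone and 0.0049 without both libraries.

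With 1 library left out, the lowest and highest log2 fold changes of the genes whose sign changed were, in Tyr19Phe against WT CDK9 cells, -0.05 and 0.01 for PAX8, -0.03 and 0.03 for ESR1 and -0.43 and 0.14 for PGR. After the inhibitor they were -0.08 and 0.04 for ESRRA, -0.05 and 0.52 for PGR and -0.07 and 0.0051 for NR3C1. Between Tyr19Phe and inhibitor-treated cells they were -0.02 and 0.05 for PAX8, -0.81 and 0.30 for WT1 and -0.08 and 0.0007 for NR3C1.

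The replicate block left the numbers of the 8 genes called at 1, 3 and 3 and called 13, 47 and 56 genes of the related lists in the 3 comparisons, against 13, 43 and 55 without it. In 3 of 9 libraries the closest library of another group had the same number, so numbers were not taken to pair libraries. With the other scalings the median of all genes was 0.000975 to 0.0295. WT1 could not be tested with at least 10 counts in every library.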
